A study of Mus musculus with 2 samples.

Results

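Immediate early genes were examined in the small intestine of 1 mouse. They were the 10 genes Fos, Fosb, Jun, Junb, Jund, Egr1, Zfp36, Klf6, Ier2 and Atf3, taken by name from 43346 genes in the deposited tables. All 10 were present in the tables, and all 10 reached the minimum of 20 counts over both libraries that a test required. Poly(A) RNA was sequenced from an adult female C57BL/6J mouse at 10 weeks of age. No agent, allele or genotype other than the strain is named in the labels. The single tissue sample was sequenced as 2 technical libraries, called the first (technical replicate 1) and the second (technical replicate 2, made in 2015). The sources used here do not say whether 1 extraction of RNA served both libraries. No condition was compared, so each test below compares these 2 libraries and each error covers counting only, without variation between mice.

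Immediate early genes are transcribed within minutes of a growth factor, stress or membrane signal, without new protein synthesis. Signals reach them mainly through MAP kinases, which act on serum response factor with its Elk partners and on CREB family proteins at the promoter. Many encode transcription factors, of which the Fos and Jun proteins pair to form AP-1. Their mRNAs are typically short-lived, often through AU-rich elements in the 3′ untranslated region (3′ UTR).

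The libraries held 28277875 and 24509862 expected counts, which are read counts shared by estimate among the genes that a read matches. Mitochondrial genes with their nuclear copies took 72.3% of all TPM (transcript abundance scaled to a common sum, a level per length) in the first library and 21.6% in the second. Levels per length are given as deposited TPM, in which nuclear genes share a smaller part of the sum in the first library. Differences between libraries are therefore given as log2 ratios of counts scaled by TMM, second over first. A gene was counted as different where the exact binomial test gave an adjusted p under 0.05 and the libraries differed by 2-fold or more. The median log2 ratio over the 15194 tested genes was 0.26. The labelled tissue was checked on 12 markers of small intestinal epithelium, none of which was at 0 in either library, with a summed level of 6773 TPM in the first and 14450 TPM in the second. Fabp2, the intestinal fatty acid binding protein, stood at 3191 and 5248 TPM.

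Transcripts of the immediate early genes were present in both libraries, at 0.16 to 56.2 TPM in the first and 1.16 to 121 TPM in the second. Their summed level was 119.9 TPM in the first library and 423.2 TPM in the second, or 0.012% and 0.0423% of all TPM. After mitochondrial genes and their copies were taken out of the sum, the shares were 0.0433% and 0.054%. Klf6, Fos and Zfp36 together made up 87.6% of the summed level in the first library. In the second library the sum was spread over more genes, and Zfp36 and Fos held 46.5%.

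**Figure D1:**
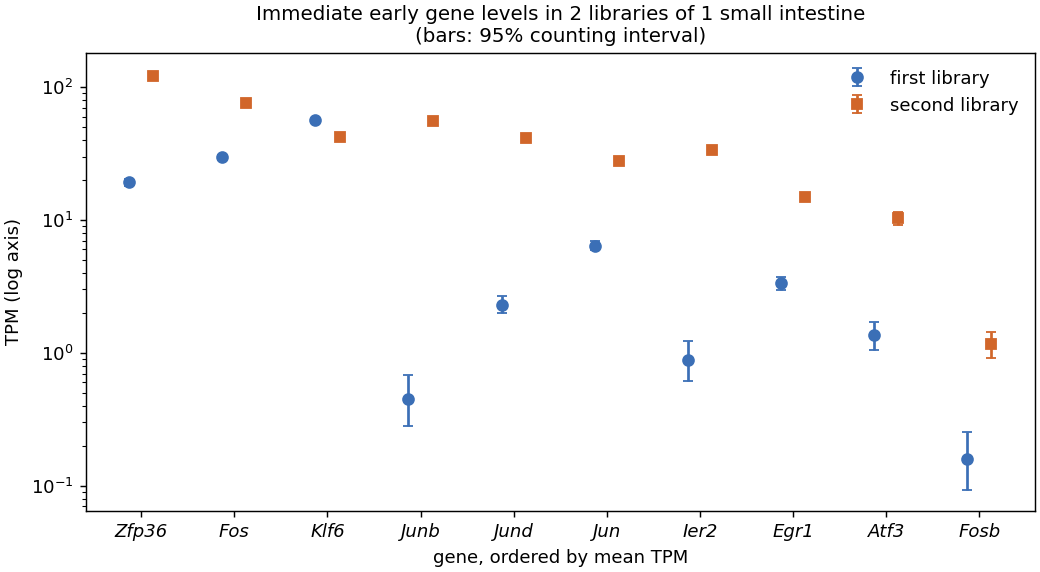
Deposited TPM of the 10 immediate early genes on a log axis, with a circle for the first library, a square for the second and bars for the 95% counting interval. Klf6 alone stands higher in the first library, and Junb shows the widest gap, from 0.45 to 55.3 TPM.

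Of the 10 genes, 6 had more transcript in the second library, 1 had more in the first and 3 counted as neither. Among all tested genes, the second library was ahead for 40.2% and the first for 27.5%. The 6 were Fosb, Junb, Jund, Zfp36, Ier2 and Atf3, the 1 was Klf6, and the 3 were Fos, Jun and Egr1. The members' median log2 ratio was 1.46 beside 0.26 for all tested genes. The scaling decided some of these calls. With plain count totals in place of TMM, Jun (log2 ratio 1.69) and Egr1 (1.71) joined the genes ahead in the second library and Klf6 (-0.86) was no longer counted as different, while 83.7% of all calls lay on the side of the second library instead of 59.4% and the median of all genes was 1.10. With totals that left out mitochondrial genes, Jun (1.05) and Egr1 (1.07) also passed 2-fold, and the counts were 8 and 1.

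The promoters of a few members that held motifs searched here are shown first. RefSeq promoter windows on GRCm38.p6 were found for 8 of the 10 genes, not for Egr1 and Ier2. Each line below runs 5′ to 3′ on the gene's strand from 110 bases before to 10 bases into the RefSeq transcript. Capitals mark the CArG box, the core TGACG, the box TATAAA, the box CCAAT or the Egr motif GCGNGGGCG on either strand. The windows are chr12:85473780-85473899 (plus strand) for Fos, chr7:19310036-19310155 (minus) for Fosb, chr8:84978739-84978858 (minus) for Junb and chr7:28379219-28379338 (minus) for Zfp36.
Fos: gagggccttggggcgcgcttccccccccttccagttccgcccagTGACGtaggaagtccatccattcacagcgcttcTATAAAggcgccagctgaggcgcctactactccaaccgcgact
Fosb: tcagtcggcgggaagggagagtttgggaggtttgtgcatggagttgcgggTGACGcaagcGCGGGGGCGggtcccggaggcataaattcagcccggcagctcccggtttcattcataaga
Junb: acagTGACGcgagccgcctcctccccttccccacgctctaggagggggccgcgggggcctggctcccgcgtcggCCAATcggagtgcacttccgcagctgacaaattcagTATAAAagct
Zfp36: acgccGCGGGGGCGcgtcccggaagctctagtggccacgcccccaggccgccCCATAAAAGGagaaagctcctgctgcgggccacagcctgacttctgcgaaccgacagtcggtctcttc

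Over the full window, 250 bases before to 50 bases after the start, both strands were searched. The CArG box, the serum response factor motif, was found in 1 of the 8 member promoters, that of Zfp36, and in 1.63% of all 32851 promoters. TGACG, the core of the cAMP response element, was found in 4 of 8 (Fos, Fosb, Junb and Atf3) and in 20.81% of all promoters. The full palindrome TGACGTCA, which holds TGACG, was in none of the 8 and in 1.79% of all, and the AP-1 motif TGANTCA was in none of the 8 and in 7.81% of all. TATAAA stood in the windows of Fos and Junb and in 13.62% of all promoters. GCGNGGGCG, the Egr motif, stood in those of Fosb and Zfp36 and in 5.55% of all. CCAAT was found in 4 of 8 and in 37.41% of all, and GGGCGG, which can overlap the Egr motif, in 6 of 8 and 35.66%. The median GC content of the windows was 63.3% for the 8 members and 52.7% for all promoters. The Jund window, with 46.7% GC, held none of these motifs. Its part from 110 bases before to 10 bases into the RefSeq transcript, chr8:70697629-70697748, is not printed here. That part ends before the M21 gene start at 70698949. By M21, the windows of Zfp36 (chr7:28379219-28379338) and Atf3 (chr1:191183324-191183443) lie inside the gene. Both genes are on the minus strand, with M21 starts at 28380253 and 191218039. No motif of the Elk partners was searched. A match describes the letters only, and known elements farther upstream lie outside these windows.

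Stretches of the 3′ UTR with the pentamer ATTTA are shown next. Several of these mRNAs are known to be degraded through AU-rich elements. Each line is a stretch of 30 bases from the GENCODE M21 transcript, with the pentamer ATTTA in capitals, written with T as in the genome. The stretches are bases 643 to 672 of the 3′ UTR in Fos, 571 to 600 in Zfp36, 1031 to 1060 in Jun and 727 to 756 in Klf6. The Klf6 line shows the first of 7 single pentamers, as no 30 bases of its 3′ UTR held more than 1.
Fos: tgtgttttcaATTTATTTAttaagatggat
Zfp36: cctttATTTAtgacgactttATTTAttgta
Jun: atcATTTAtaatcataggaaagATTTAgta
Klf6: tgtataagctgtATTTAcaaatcgcagtgg

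ATTTA was found in the 3′ UTR of 9 of the 10 members, all but Ier2, and in 64.7% of 17993 3′ UTRs of 100 bases or more. The longer nonamer TTATTTATT, which holds ATTTA, was found in Fos and Zfp36 and in 7.0% of all. A pair of pentamers within 30 bases was found in Fos, Jun and Zfp36 and in 16.9% of all. The members' median density was 2.39 ATTTA per kb of 3′ UTR, beside 1.22 over all. Fos had the densest 3′ UTR, with 4 pentamers in 815 bases.

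Fos (chr12:85473890-85477273, plus strand), a leucine zipper protein that needs a Jun partner to bind DNA and forms a more stable AP-1 dimer with it than Jun does alone, held 1679 and 2623 counts. Its level was 29.6 TPM in the first library and 75.4 TPM in the second. Its TPM was higher in the second library, while its scaled counts were nearly equal. The log2 ratio was 0.01 with a 95% interval of -0.08 to 0.10, and the exact binomial test gave an adjusted p of 0.83. With mitochondrial genes and their copies taken out of the TPM sum, Fos stood at 107.0 and 96.1 TPM. Fosb (chr7:19302696-19310051, minus strand), the related family member, was the lowest of the 10 genes in both libraries, with 17 and 78 counts, or 0.16 and 1.16 TPM. It was higher in the second library by a log2 ratio of 1.53 (95% interval 0.79 to 2.42; exact binomial test, adjusted p = 1.58e-05). Fos held 99.5% of the Fos and Fosb level in the first library and 98.5% in the second, so Fos was the dominant of the pair in both.

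Jun (chr4:95049034-95052222, minus strand), the founding AP-1 subunit, held 569 and 1587 counts, or 6.41 and 28.0 TPM. Its log2 ratio was 0.85 (95% interval 0.71 to 0.99; exact binomial test, adjusted p = 1.76e-35), which lay beyond counting error and, with TMM scaling, under 2-fold. Junb (chr8:84974484-84978718, minus strand), a family member known to restrain Jun in some settings, held 22 and 1731 counts, or 0.45 and 55.3 TPM. Junb had the largest difference of the 10 genes, a log2 ratio of 5.63 (95% interval 5.06 to 6.34), or 49.6-fold higher in the second library. Jund (chr8:70698949-70700616, plus strand), the family member usually described as the least inducible, held 184 and 2106 counts, or 2.31 and 41.4 TPM. It was 7.36-fold higher in the second library, with a log2 ratio of 2.88 (95% interval 2.67 to 3.11). The values of Junb and Jund carry limits, for Junb only a possible one. The M21 span of the Junb gene overlaps 351 bases of Prdx2 on the opposite strand, and Prdx2 held 154 and 3374 counts. Junb counts belong to a single-exon transcript of 1840 bases, shorter than that span. Whether this transcript reaches the overlap was not checked, and whether counting used strand is not stated. Jund had a transcript of 2878 bases in the deposited tables and 1668 bases in GENCODE M21, so its TPM depends on the model.

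The make-up of the Jun family TPM differed between the libraries, while Fos stayed ahead of Fosb. Summed Jun family levels were 9.17 TPM in the first library and 124.7 TPM in the second. Jun held 69.9% of that sum in the first library and 22.4% in the second. Junb held 4.9% and 44.3%, which made it the leading Jun transcript of the second library. Jund held 25.2% and 33.2%. The mitochondrial share also enters these summed levels. With mitochondrial genes and their copies taken out, Jun stood at 23.2 and 35.7 TPM, Junb at 1.63 and 70.5 TPM and Jund at 8.35 and 52.8 TPM. The ratio of Jun family to Fos family TPM was 0.308 in the first library and 1.63 in the second. Fos transcripts were thus the larger family in the first library and Jun transcripts in the second, with the limits on Junb and Jund given above. GC content was 55.5% in Jun, 62.6% in Junb and 67.1% in Jund. The log2 ratio over all genes rose with GC content, as described below. The part of GC content in this make-up was not tested.

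**Figure D2:**
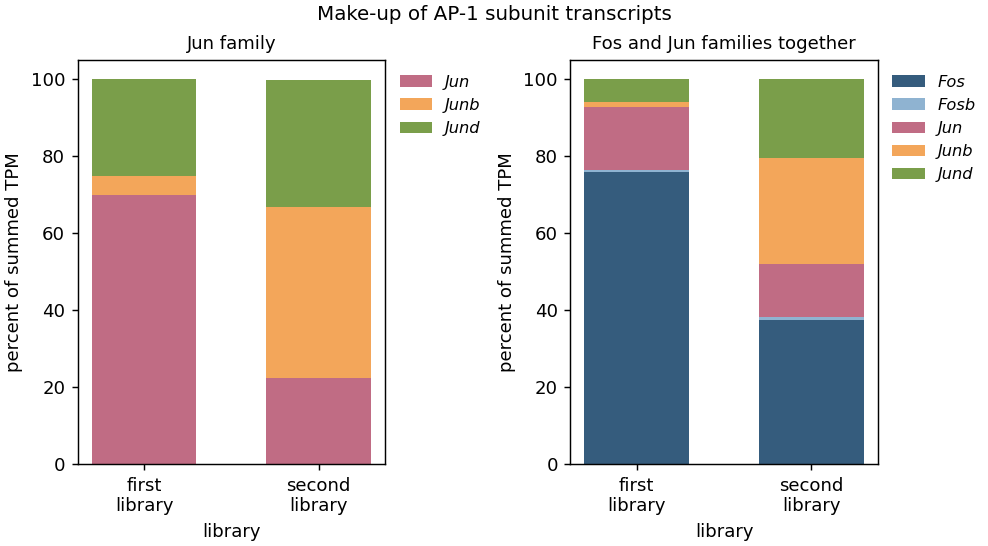
Percent of summed TPM held by each gene, for the Jun family on the left and for the Fos and Jun families together on the right, with 1 bar per library. Fos held 76.0% of the joint sum in the first library and 37.5% in the second, and Junb 1.2% and 27.5%.

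Klf6, Atf3, Zfp36 and Ier2 are described next by role. Klf6 (chr13:5861482-5870394, plus strand), a zinc finger factor of the Krüppel-like family, held 6702 and 3204 counts, or 56.2 and 42.1 TPM. It was the only member higher in the first library, 3.24-fold, with a log2 ratio of -1.70 (95% interval -1.76 to -1.64). Without mitochondrial genes and their copies in the sum, Klf6 stood at 203.2 and 53.7 TPM. Atf3 (chr1:191170296-191218039, minus strand), a stress-induced leucine zipper factor that often represses, held 69 and 332 counts, or 1.36 and 10.3 TPM. Atf3 was 3.09-fold higher in the second library (log2 ratio 1.63, 95% interval 1.26 to 2.03).

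Zfp36 (chr7:28376784-28380253, minus strand) encodes tristetraprolin, which binds AU-rich elements and speeds the decay of mRNAs, its own included. It held 908 and 3686 counts, or 19.2 and 121 TPM, and had the highest TPM of the members in the second library. Its transcript had 1792 bases in the deposited tables and 2790 bases in GENCODE M21, so its TPM and its place ahead of Fos depend on the model. The difference was 2.62-fold (log2 ratio 1.39, 95% interval 1.28 to 1.49). Ier2 (chr8:84661331-84662852, minus strand), a small nuclear protein of the early response, held 35 and 847 counts, or 0.89 and 33.5 TPM. Ier2 was 15.4-fold higher in the second library (log2 ratio 3.94, 95% interval 3.48 to 4.50), the largest difference after Junb. It was also the member with no ATTTA in its 3′ UTR.

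The order of the genes by level differed between the libraries. In the first library it ran Klf6, Fos, Zfp36, Jun, Egr1, Jund, Atf3, Ier2, Junb and Fosb from high to low. Neighbours whose 95% counting intervals overlapped were Atf3 with Ier2 and Ier2 with Junb. In the second library it ran Zfp36, Fos, Junb, Klf6, Jund, Ier2, Jun, Egr1, Atf3 and Fosb, and the intervals of Klf6 and Jund overlapped. Of the 45 pairs of members, 14 stood in opposite order in the 2 libraries. Fos in second place and Fosb in last place held their positions, and Junb moved from place 9 to place 3.

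Egr1 (chr18:34859823-34864984, plus strand), a zinc finger factor of the early growth response family, held 296 and 839 counts. Its level was 3.35 TPM in the first library and 14.9 TPM in the second. The log2 ratio was 0.87 (95% interval 0.68 to 1.07; exact binomial test, adjusted p = 2.64e-20), near that of Jun and likewise under 2-fold with TMM scaling. Its 3-exon transcript held 90.1% and 90.4% of the gene's TPM, so the isoform shares of Egr1 were close in the libraries.

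Transcript models other than the main one could be read for 3 of the 10 genes, Fos, Atf3 and Egr1. The deposited tables gave the other 7 a single transcript. For Fos, the coding transcript held 99.8% of TPM in the first library and 93.7% in the second. A shorter Fos model without a coding sequence held 0.20% and 6.27%, from 1.03 and 54.9 counts. For Atf3, the tables gave all 69 counts of the first library to a coding transcript of 1906 bases and 328.0 of the second library's counts to another coding transcript of 1984 bases. The posterior SD of those counts was 12.7 in the first library and 22.6 in the second. In the first library the deposited bounds of the 2 Atf3 transcripts, 0.41 to 1.5 TPM and up to 0.79 TPM, overlapped, so a switch of transcript was not resolved there.

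Most members were rich in GC, but not all. The members were taken by name and not by GC content, though earlier results of these data, a GC trend among them, were known. The median GC content of tested genes was 50.4%, with quartiles of 46.0% and 54.9%. Of the 10 members, 9 lay above the median and 7 above the upper quartile. Jund was highest at 67.1%, followed by Junb at 62.6% and Ier2 at 60.9%, and Klf6 was lowest at 42.4%. The Jund value comes from the M21 model of 1668 bases, while its counts were assigned to a transcript of 2878 bases. Its rank and its distance from a GC trend depend on that model. In all 10 the coding sequence was richer in GC than the 3′ UTR, by little in Atf3 (50.7% and 49.7%). The medians over all genes compared ran the same way, at 51.7% for coding sequence and 43.8% for the 3′ UTR. Coding GC was above the median of all transcripts, 51.7%, for 8 of 10 members, while the 3′ UTRs ranged from 38.7% in Klf6 to 58.5% in Ier2. Jun, Junb, Jund and Ier2 are single-exon genes, a structure shared by 10.7% of 21408 transcripts.

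The 100 coding bases of highest GC content are shown for Jund, the member of highest GC content, for Junb and Klf6, which had the highest and the lowest log2 ratio, and for Fos, from GENCODE M21 transcripts. Capitals mark runs of 6 or more G or C bases. The windows span bases 569 to 668 of the coding sequence in Jund (86.0% GC), 441 to 540 in Junb (76.0%), 181 to 280 in Fos (68.0%) and 590 to 689 in Klf6 (64.0%).
Jund: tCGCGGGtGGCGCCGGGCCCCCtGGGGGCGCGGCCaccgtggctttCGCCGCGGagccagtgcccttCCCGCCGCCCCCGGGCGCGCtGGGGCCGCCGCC
Junb: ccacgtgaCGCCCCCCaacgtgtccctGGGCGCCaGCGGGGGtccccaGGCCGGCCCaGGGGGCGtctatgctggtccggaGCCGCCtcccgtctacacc
Fos: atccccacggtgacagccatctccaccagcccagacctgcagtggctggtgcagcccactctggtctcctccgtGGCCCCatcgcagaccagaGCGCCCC
Klf6: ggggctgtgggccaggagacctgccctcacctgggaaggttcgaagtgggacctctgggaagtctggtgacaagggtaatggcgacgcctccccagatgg

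Jund and Junb had 6 such runs each, Fos 2 and Klf6 none. Over all 15127 nuclear genes with a GC value, the log2 ratio rose with GC content, with Pearson's r of 0.80 and Spearman's rho of 0.85 across genes, which are not independent replicates and share the same libraries. Over the 10 members the values were 0.80 and 0.71, given as a description. The members were read beside genes of the same GC content. At 60% GC or more, 3 of 3 members (Junb, Jund and Ier2) were higher in the second library, beside 95.2% of 581 genes. At 55 to 60%, 1 of 4 members (Fosb, not Fos, Jun or Egr1) was higher, beside 89.9% of 3099 genes. At 50 to 55%, 2 of 2 (Zfp36 and Atf3) were higher, beside 57.1% of 4228 genes, and at 40 to 45% Klf6 was higher in the first library, beside 82.7% of 2534 genes.

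**Figure D3:**
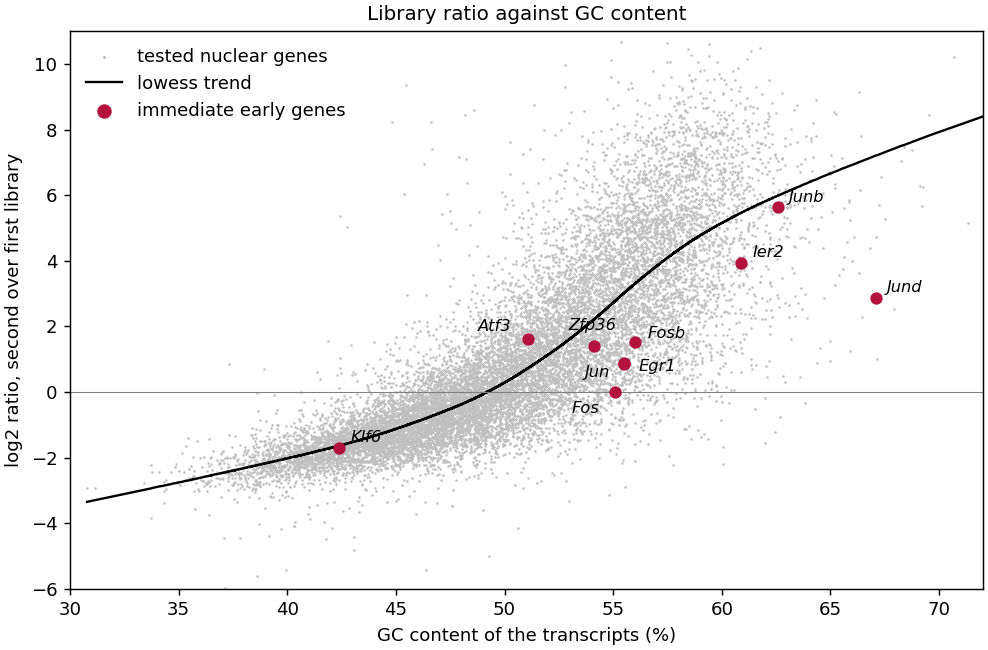
Log2 ratio of scaled counts, second over first library, against the mean GC content of a gene's transcripts, with tested nuclear genes in grey, a lowess trend in black and the 10 immediate early genes in red. Klf6 lies on the trend at low GC, Atf3 above it, and Fos, Jun, Egr1 and Jund well below it.

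Relative to this trend, 9 of the 10 genes lay below and Atf3 lay above. The median distance was -1.64 on the log2 scale, and quartiles over all genes were -0.72 and 0.76. With the trend removed, the first library was ahead for 6 members, the second for 0 and neither for 4, beside 17.6% of all genes in each direction. The 6 were Fos (-2.79), Fosb (-1.75), Jun (-2.19), Jund (-4.34), Egr1 (-2.12) and Ier2 (-1.52). Klf6 at -0.06 and Junb at -0.35 lay on the trend. The largest raw difference, that of Junb, was thus close to that of other genes of its GC content, and the smallest, that of Fos, was far from it.

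The distance depended on where GC content was measured, an alternative chosen after seeing the data. With the GC content of the most abundant coding transcript, the counts were again 6 ahead in the first library and 0 in the second, beside 13.7% and 15% of all genes, and Fos moved from -2.79 to -1.13, since its main transcript has 51.9% GC and the mean over its transcripts is 55.1%. With the GC content of the 3′ UTR, the second library was ahead for 3 members (Junb 1.92, Zfp36 1.5 and Egr1 1.18), the first for 3 (Jund -2.56, Fosb -2.13 and Ier2 -1.83), and the median was 0.24. Over all genes those shares were 21.2% and 13.8%. Fosb, Jund and Ier2 lay below all 3 trends, as did Klf6 by smaller distances (-0.06, -0.14 and -0.58). Fos, Jun, Egr1, Zfp36 and Junb lay below the trends of whole transcripts and above that of the 3′ UTR. Atf3 lay above the trends of whole transcripts (0.90 and 0.34) and below that of the 3′ UTR (-0.39). GC values came from M21 models, whose length differed from the deposited one for 5 of the 10 genes. Among them were Jund (1668 bases in M21, 2878 as deposited) and Zfp36 (2790 and 1792).

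**Figure D4:**
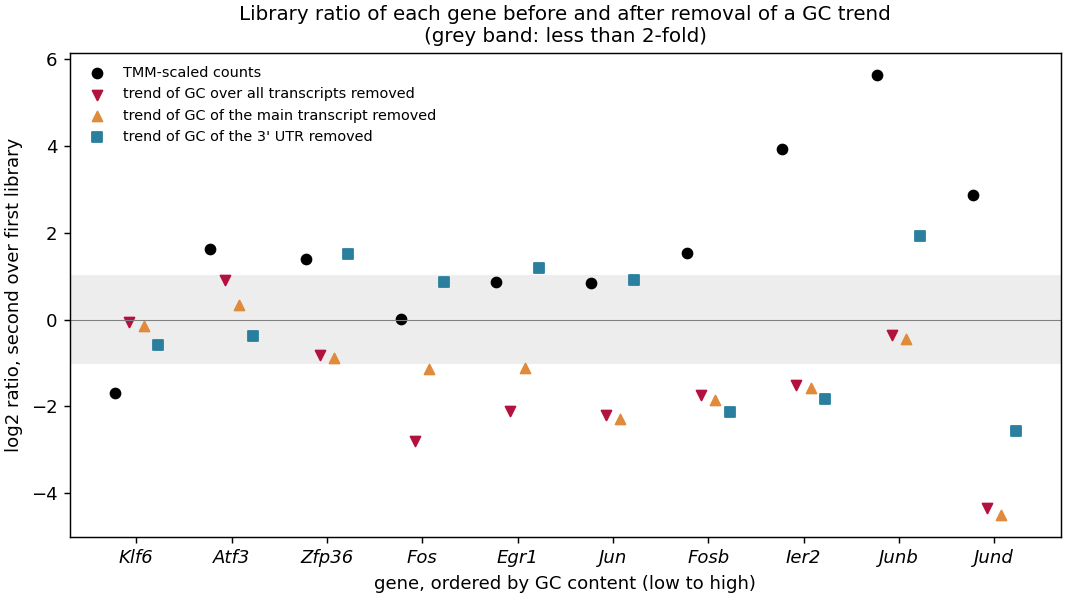
Log2 ratio of each member, second over first library, as scaled counts (circles) and after removal of a trend on GC content of all transcripts (down triangles), of the main transcript (up triangles) or of the 3′ UTR (squares), ordered from low to high GC. The sign holds for Klf6 in all 4 sets and turns for Jund from 2.88 to values between -4.50 and -2.56.

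Genes around the immediate early genes in the same pathway were taken from lists, whose counts stand beside the 40.2% of all tested genes ahead in the second library and the 27.5% ahead in the first. Of 12 tested AP-1 and other leucine zipper partners, the second library was ahead for 8 and the first for 1, and the median log2 ratio was 1.84. Atf4, the effector of the integrated stress response, held 773 and 3437 counts (log2 ratio 1.52), and Fosl2, a further Fos relative, at 12.0 and 31.3 TPM (0.10). Batf2 had the highest log2 ratio of that list, 6.56 from 3 and 511 counts (95% interval 5.22 to 9.06), and Atf2 the lowest, -1.72. Fosl1 held 0 and 2 counts and was not tested. For the other early transcription factors the second library was ahead for 4 of 11 tested and the first for 2, near those shares, around a median of -0.17. Klf4, a factor of differentiated epithelium, led them at 56.7 and 95.4 TPM (log2 ratio -0.53), ahead of Hes1 and Klf10, and none of these 3 differed by 2-fold. Csrnp1 held 0 and 110 counts, or at least 23.7-fold more in the second library against a floor of 3 counts, and Nr4a3 was lowest at -1.39.

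Among 19 other early regulators, the second library was ahead for 10 and the first for 2, and the median was 1.15. Mcl1, a short-lived survival protein, stood at 107 and 94.0 TPM (log2 ratio -1.47). Sgk1, a kinase induced by serum and glucocorticoid, stood at 51.4 and 110 TPM (-0.43), and Gadd45a, a growth arrest gene, at 27.0 and 79.6 TPM (0.20). Gadd45g held 0 and 160 counts, or at least 34.4-fold more in the second. Of 9 MAP kinase phosphatases, which switch the pathway off, the second library was ahead for 3, near the 40.2% of all genes, and the first for 0, around a median of 0.37. Dusp6 and Dusp16 stood at 24.3 and 34.1 TPM and at 14.5 and 25.4 TPM, with log2 ratios of -0.79 and -0.52. Dusp5 (log2 ratio 2.47) and Dusp8 (3.69) were among the 3 that differed.

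Among upstream genes, the counts of the first pair of lists lay near the shares over all genes, 40.2% and 27.5%. Of 13 serum response and CREB regulators, the second library was ahead for 4 and the first for 3 around a median of -0.39. Srf, the factor that binds the CArG box, had 19 and 945 counts and a log2 ratio of 4.97, while Creb1 was lowest at -2.07. Atf1 (-1.56) was higher in the first library, Crtc2 (3.18) in the second, and Elk4 (-0.45) in neither. Of 17 MAP kinases and their activators, the second was ahead for 7 and the first for 6 around a median of 0.18. Mapk3 (ERK1) stood at 3.27 and 235 TPM (log2 ratio 6.39). Map2k2 was highest at 6.88 and Rps6ka3 lowest at -2.21. Of 18 genes for binding of AU-rich elements and deadenylation, the second was ahead for 3 and the first for 11 around a median of -1.29. Ybx1 had a log2 ratio of 0.26, Hnrnpd -1.69, Tial1 -1.56, Cnot6l -2.34 and Cnot3 3.07.

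With the trend on GC content of all transcripts removed, the medians of the early response lists were negative like that of the members. The lists are given with this trend only, and the members' median was 0.24 with the GC content of the 3′ UTR. They were -1.03 for the AP-1 partners, -1.34 for the other early transcription factors, -1.29 for the other early regulators and -1.15 for the phosphatases. The medians were -0.42 for the serum response and CREB regulators, 0.00 for the MAP kinases and -0.25 for the AU-rich element genes. No difference between these lists was tested.

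**Figure D5:**
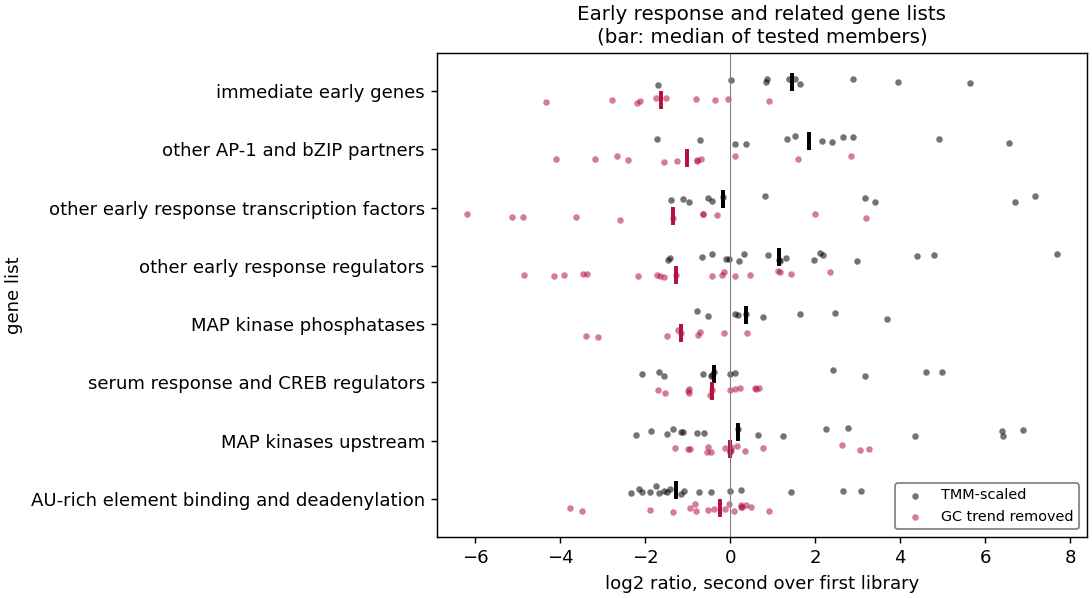
Log2 ratio, second over first library, of each tested gene in 8 lists, in black for scaled counts and in red after removal of the trend on GC content of all transcripts, with a bar at each median. The red median of the immediate early genes lies at -1.64 and those of the 4 other early response lists between -1.34 and -1.03.

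Markers of cell types are given beside the same shares over all genes, 27.5% ahead in the first library and 40.2% in the second. Smooth muscle markers were higher in the second library for 8 of 8 genes, with a summed level of 28.7 and 891.1 TPM, a median log2 ratio of 3.43 and a median of 2.68 above the GC trend. Pancreatic acinar markers were higher in the second library for 5 of 7, at 2055 and 10640 TPM in sum, with a median of 2.07 above the GC trend. For immune markers the second library was ahead in 6 of 9 and the first in 2, at 491.1 and 757.4 TPM, with a median of 1.05 above the trend. For stromal and endothelial markers it was ahead in 4 of 8 and the first in 1, at 147.8 and 272.9 TPM, with a median distance of -0.12 from the trend. For epithelial markers it was ahead in 7 of 12 and the first in 1, with a median distance of 0.39. None of these markers was at 0 in either library. Their part in the values of the immediate early genes was not tested. Both libraries are labelled as 1 tissue sample. Differences in library making, in cells of a type and in RNA per cell cannot be told apart here.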

How the data were processed

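Poly(A) RNA of 1 mouse small intestine was deposited as 2 technical libraries. Per the file headers, gene and transcript tables are in the RSEM format. The deposited notes give assembly mm10 and annotation M4, while aligner, quantifier version and filtering of reads are not stated in the sources used here. The authors deposited expected counts, estimates that need not be whole. TPM values were deposited per gene and per transcript, scaled to a common sum. FPKM values in the deposited tables served 1 alternative. Isoform shares were deposited by the authors as a percent of the TPM of the gene. Posterior SDs and credibility bounds were also used as deposited.

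The libraries held 28277875 and 24509862 expected counts, which were rounded. With 1 library on each side, the quasi-likelihood test of edgeR had no residual degrees of freedom and could not be fitted. In its place, an exact binomial test, two-sided (scipy 1.17.1), was run on all genes with 20 or more counts over both libraries, with the split from TMM sizes (edgeR 4.0.16) and Benjamini-Hochberg adjustment over 15194 genes. Calls needed an adjusted p under 0.05 and 2-fold or more. Log2 ratios used 0.5 prior counts. Intervals are exact at 95% and cover only counting error, and reads that carry no molecular identifier are not independent molecules. A fold against 0 counts used a floor of 3 counts in that library.

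Symbols, coordinates (mm10, counted from 1), UTRs and GC content came from GENCODE M21 on the same assembly, which matched 42462 genes. Promoters came from RefSeq on GRCm38.p6. The GC trend was a lowess with a span of 0.3 (statsmodels 0.14.6) over 15127 nuclear genes. BLAST 2.17.0 (95% identity over 100 bases) was used to find the nuclear copies of mitochondrial genes. The genes named were the 10 members, the 3 of highest mean TPM and the highest and lowest log2 ratio of each pathway list, and the 3 of highest mean TPM of each marker list, of which only Fabp2 is printed. Some of the genes chosen by this rule are not reported here. Fosl1 and Prdx2 were named after their values were seen. The members and lists were chosen with earlier results of these data known. Alternatives were DESeq2 1.42.0 size factors, count totals, FPKM, other count minimums, 2 prior counts and removal of GC trends.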

Additional observations from a re-analysis of the deposited data

How the results depend on the processing

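No paired analysis was possible because both libraries belong to 1 group and no groups were compared. Of 99 alternative log2 ratios of single members, 67 kept direction and call, 6 lost the call, 5 gained it and 21 turned. With count totals in place of TMM, 83.7% of all calls were higher in the second library instead of 59.4%, the median of all genes was 1.10 instead of 0.26, 0 members were higher in the first library and the members' median was 2.30. Of the 15194 tested genes, 1526 were then higher in the first library and 7809 in the second. With totals without mitochondrial genes Jun (1.05) and Egr1 (1.07) gained the call, the first library was ahead for 1 member and the second for 8, the members' median was 1.66 and that of all genes 0.46. Those calls stood beside 3563 and 6480 of the 15194 tested genes. DESeq2 size factors put Fos at -0.03. With the GC trend removed, the second library was ahead for 0 members and the first for 6, beside 17.6% of all genes in each direction. The median was -1.64, and the log2 ratios that turned were those of Fos (-2.79), Fosb (-1.75), Jun (-2.19), Junb (-0.35), Jund (-4.34), Egr1 (-2.12), Zfp36 (-0.81) and Ier2 (-1.52). The remaining GC alternatives were chosen after seeing the data. With GC content of the main transcript the counts for the second and first library were 0 and 6, beside 15% and 13.7% of all genes. The median was -1.12, with Fos -1.13, Fosb -1.86, Jun -2.30, Junb -0.44, Jund -4.50, Egr1 -1.12, Zfp36 -0.89 and Ier2 -1.59. With GC content of the 3′ UTR the counts were 3 and 3, beside 21.2% and 13.8% of all genes. The median was 0.24, with Fosb -2.13, Jund -2.56, Ier2 -1.83 and Atf3 -0.39. The cause of these changes was not tested. A minimum of 100 counts left Fosb untested and 5 members higher in the second library, beside 4956 of 12389 tested genes. The members' mean share of TPM over the libraries was 0.0272%, 0.0487% without mitochondrial genes in the sum and 0.0533% of expected counts, and single libraries gave 0.012% to 0.0423%. On the plus strand alone, GGGCGG was found in 3 member promoters instead of 6. With 17 counts for Fosb and 22 for Junb in the first library, depth limits those ratios most.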
